A study of Drosophila melanogaster with 9 samples.

Results

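Loss of HP1a from germ cells in which Piwi mRNA was already low was read from 4 ovary libraries, both double-GKD replicates and both replicates labelled HP1a-GKD, out of the 9 samples of the series. GKD stands for a germline knockdown, in which a UAS hairpin is transcribed under GAL4 from the nos promoter, so only germ cells make the hairpin and the somatic cells of the ovary keep both proteins. The 4 libraries were chosen by their labels, and the remaining 4 RNA libraries, Ctrl and those labelled Piwi-GKD, were used to fit the spread and to measure the same step where piwi mRNA stood nearer to the control level. All libraries held rRNA-depleted total RNA from ovaries of females aged 0-1 day, raised at 18 °C.

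All 4 genotypes were sisters from 1 cross and carried UAS-Dcr-2.D on a w[1118] X chromosome and 1 copy of the GAL4-nos.NGT driver, the controls included. By the labels, Ctrl had the driver over the Cy balancer and TM3. The libraries labelled HP1a-GKD had the driver over Cy together with UAS-HP1a-RNAi (line 31994). Those labelled Piwi-GKD had UAS-Piwi-RNAi (line 101658) over the driver together with TM3, and double-GKD had both hairpins and no balancer. The target mRNAs below go against the labels of both single knockdowns. With these labels exchanged, the compared step adds the HP1a hairpin and removes TM3. As labelled, it adds the Piwi hairpin and removes Cy. A hairpin and the loss of a balancer chromosome therefore came together in every comparison and cannot be told apart. Each hairpin was 1 insertion, and each library pooled the ovaries of many females. At this temperature most ovarioles without germline HP1a reach about the middle of oogenesis by the study's own description, and gene-level values cannot show which egg chambers a library held.

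HP1a, the product of the gene Su(var)2-5, binds histone H3 methylated at lysine 9 and holds heterochromatin in a compact, mostly silent state. Piwi, guided by small piRNAs, directs this methylation to transposon copies in the nuclei of ovarian cells, and HP1a is one of the proteins recruited there. HP1a also acts where Piwi does not, at telomeres, in pericentric heterochromatin and on chromosome 4, so a germ cell that lacks Piwi still has HP1a-bound chromatin to lose.

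The target mRNAs were measured first because they check the labels. HP1a mRNA stood at 342 and 358 TPM (transcript abundance scaled for length and library total) in the libraries labelled HP1a-GKD, close to 327 and 328 TPM in Ctrl, and at 161 and 172 TPM in double-GKD. piwi mRNA stood at 129 and 134 TPM in the libraries labelled HP1a-GKD, at 158 and 147 TPM in double-GKD, against 318 and 276 TPM in Ctrl and 259 and 229 TPM in those labelled Piwi-GKD. The libraries labelled HP1a-GKD thus had piwi mRNA low and HP1a mRNA at the control level, which goes against their label, and the name of their deposited table says the opposite of the label. The study's own list of genes near transposons gives CG7296 45.17 TPM as Piwi-GKD, the mean of the libraries labelled HP1a-GKD here. Its HP1a-GKD value for CG7296, 2.09 TPM, is the mean of those labelled Piwi-GKD. Between the 4 libraries compared, HP1a mRNA fell (log2 fold change -1.32 ± 0.15 (SE), adjusted p = 0.000312; edgeR quasi-likelihood test with Benjamini-Hochberg adjustment over all genes tested, as for every adjusted p here, and n = 2 libraries a group throughout). For piwi, which was at its reduced level in all 4, the log2 fold change was -0.058 ± 0.075 (adjusted p = 0.552), or 0.13 with library totals alone. Every direction below is double-GKD relative to the libraries labelled HP1a-GKD. Since the comparison is fixed by its libraries, exchanging the labels of the single knockdowns would alter its name and none of its values.

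**Figure D1:**
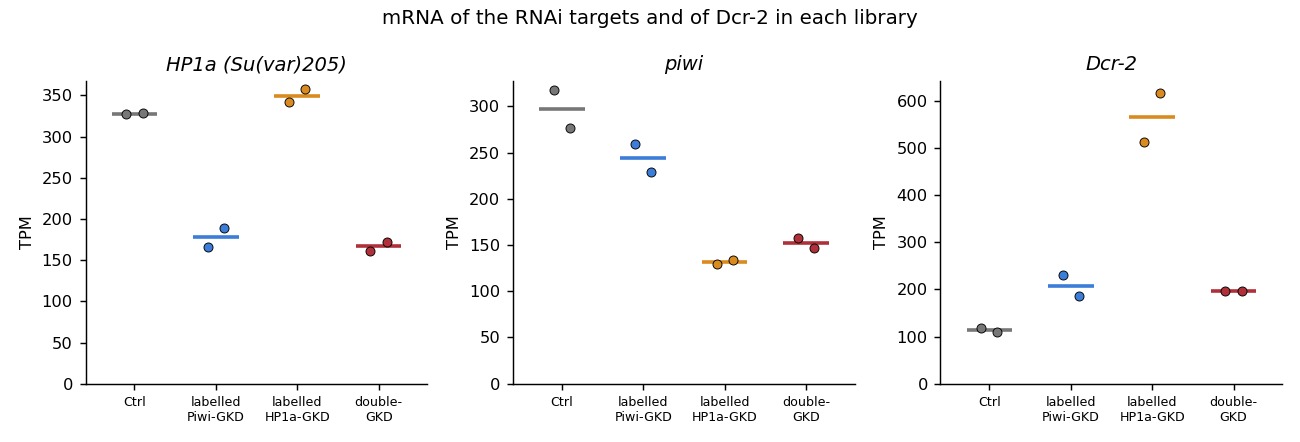
TPM of the mRNA of both RNAi targets and of Dcr-2 (y axes, from 0) in the 8 RNA libraries, by the label of the library (x axis); each point is a library and each line the mean of a group. HP1a mRNA lies between 161 and 189 TPM in double-GKD and in both libraries labelled Piwi-GKD, and piwi between 129 and 158 TPM in double-GKD and in both labelled HP1a-GKD.

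The 8 libraries held 10773406 to 12802084 estimated counts, so 3 counts corresponded to 0.234-0.278 CPM, and replicates correlated across genes with r = 0.963 to 0.982. A total of 9346 genes passed the filter on low counts. Relative to the libraries labelled HP1a-GKD, 2364 genes (25.3% of those tested) were called higher in double-GKD and 2393 (25.6%) lower at an adjusted p under 0.05, which makes 50.9% called either way. Rises were larger than falls: 1385 genes (14.8%) rose and 742 (7.94%) fell by over 2-fold, and the median log2 fold change was 1.15 among the calls upward and -0.72 among those downward. Without a correction for composition, scaling by library totals alone, the median over all genes was 0.20 in place of 0.01 and the split was 3083 higher and 1632 lower. By TPM, both double-GKD values lay above both values labelled HP1a-GKD for 54.9% of the genes tested and below them for 25.1%. Fold changes below come from the fit, and the log2 ratio of mean TPM exceeded them by 0.27 at the median.

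The direction of the calls followed how abundant a transcript is in a control ovary. Of 1251 genes tested with a mean of up to 1 TPM in Ctrl, 35.9% rose and 4.56% fell, and of 2053 genes at 1 to 10 TPM 44.1% rose and 7.89% fell. Of 1069 genes over 100 TPM, 9.07% rose and 57.2% fell. The levels used for this order are those of Ctrl, which is not among the 4 libraries compared. Of the 5722 genes with up to 1 TPM in Ctrl, however, 4471 did not pass the filter on low counts. A gene near 0 in Ctrl can pass it through a group where it is higher. The shares at the lowest level thus depend in part on the filter and do not describe all genes that are silent in Ctrl. With few counts a gene has little room to be called lower, while an abundant gene can be called at a small fold. The shares called lower thus also depend on counts. Among the genes tested, the median log2 fold change was 1.06 up to 1 TPM, 0.58 at 1 to 10 TPM and -0.44 over 100 TPM.

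**Figure D2:**
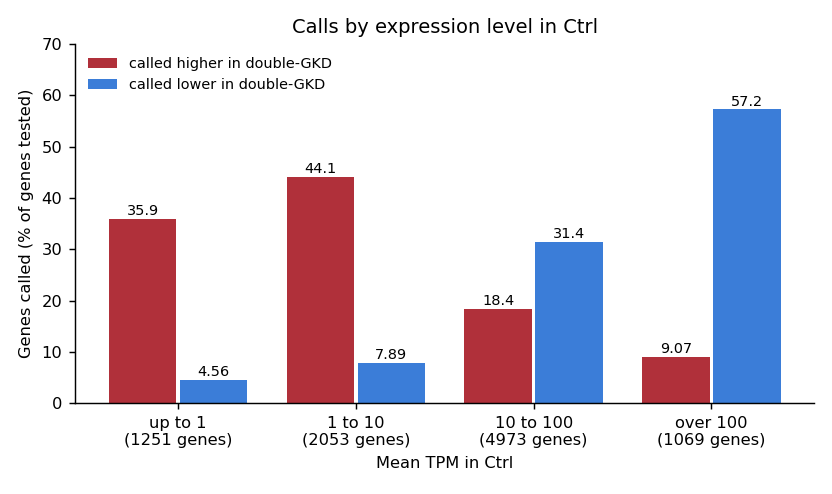
Percent of the genes tested that were called higher (red) or lower (blue) in double-GKD than in the libraries labelled HP1a-GKD (y axis), by mean TPM in Ctrl (x axis, number of genes in brackets). The share called lower rises from 4.56% to 57.2% across the levels, and it also depends on the counts available at each level.

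Markers of the cells of an ovary moved with the comparison. All 7 germline markers tested fell, with a median log2 fold change of -1.51, and their summed level was 341 and 337 TPM in double-GKD against 1285 and 1279 TPM in the libraries labelled HP1a-GKD. All 7 (nanos, osk, orb, bam, ovo, aub and del) also stand on the lists below. All 11 muscle sheath markers rose (median 1.34, summed level 3521 and 3938 TPM against 12374 and 10054 TPM). Mhc, the muscle myosin heavy chain, stood at 417 and 442 TPM and 1539.5 and 1179.7 TPM (log2 fold change 1.38 ± 0.12 (SE), adjusted p = 0.000108), and Act57B, a muscle actin, at 789 and 897 TPM and 2681 and 2090.2 TPM (log2 fold change 1.23 ± 0.13 (SE), adjusted p = 0.000239). Of 8 follicle and escort cell markers 6 rose and none fell, with Fas3, an adhesion protein of follicle cells, at 48.2 and 55.5 TPM and 233 and 201 TPM (log2 fold change 1.78 ± 0.12 (SE), adjusted p = 4.73e-05). All 5 fat body markers rose (summed level 88.8 and 117 TPM against 456 and 384 TPM), among them Lsp2, a larval serum protein (1.64 ± 0.32), and 5 of 6 blood cell markers rose, among them Hml (2.26 ± 0.21) and Pxn (2.32 ± 0.21); 3 of the blood cell markers rose when labelled HP1a-GKD replicate 1 was left out. The 2 gut markers tested were not called, with summed levels of 1.74 and 1.22 TPM and 2.52 and 2.09 TPM. In whole ovaries, fewer cells of a type and less RNA per cell cannot be told apart. What part these shifts had in the changes of germline and somatic genes below was not tested.

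**Figure D3:**
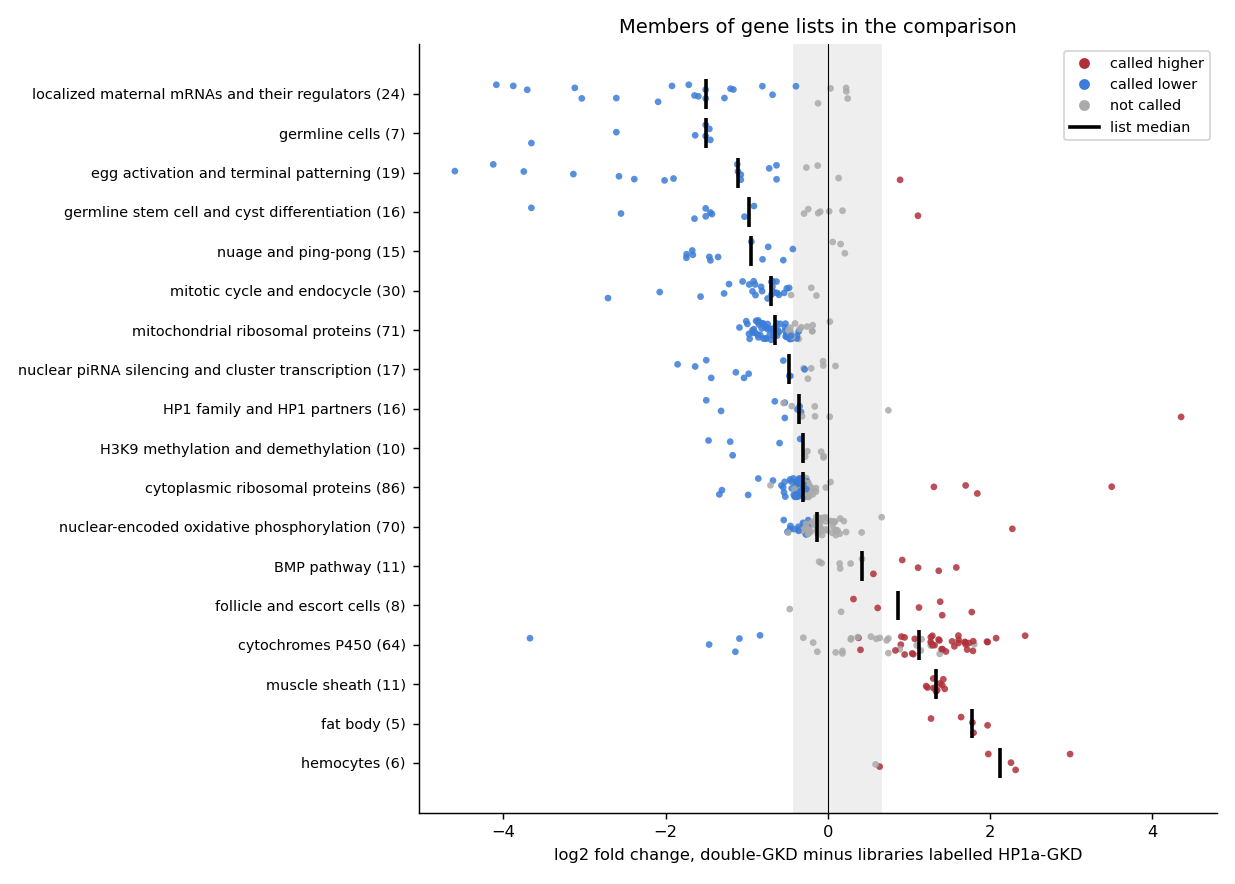
Log2 fold change of double-GKD over the libraries labelled HP1a-GKD (x axis) for the tested members of 18 gene lists (y axis, number tested in brackets), each point a gene, coloured by its call. Black bars are list medians and the grey band spans the interquartile range of all genes tested. The lists of germline markers, germ cell differentiation, maternal mRNAs, egg activation, the piRNA pathway and the cell cycle lie to the left, with medians from -0.47 to -1.51, and muscle, fat body and blood cell lists to the right, with medians from 1.34 to 2.12.

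Transcripts that the germline stores for the egg had the lowest median of the functional lists. Of 24 tested genes for localized maternal mRNAs and the proteins that control them, 19 fell and none rose, with a median log2 fold change of -1.51 against 0.01 over all genes, and 17 to 19 fell with any 1 library left out. pgc, which encodes a small repressor of transcription in pole cells, dropped from 215 and 200.1 TPM to 13.3 and 14.5 TPM (log2 fold change -4.09 ± 0.19 (SE), adjusted p = 2.31e-05). cad, a homeodomain factor of the posterior embryo, stood at 23.4 and 24.5 TPM and 2.42 and 2.03 TPM (log2 fold change -3.71 ± 0.23 (SE), adjusted p = 3.79e-05). exu and swa, whose products localize bcd mRNA, were also among the falls. For exu the levels were 116 and 109 TPM and 14.3 and 16.2 TPM (-3.12 ± 0.14) and for swa 108 and 107 TPM and 14.8 and 16.7 TPM (-3.03 ± 0.14). osk, the organizer of the pole plasm, was 1 of the most abundant members, at 895 and 866 TPM and 174 and 175 TPM (log2 fold change -2.61 ± 0.12 (SE), adjusted p = 2.17e-05). me31B, the RNA helicase of stored maternal mRNAs (-1.92 ± 0.15), bcd, the anterior morphogen (-1.71 ± 0.16), bru1, a translational repressor of osk (-1.64 ± 0.12), orb, a cytoplasmic polyadenylation factor (-1.50 ± 0.091), nanos (-1.51 ± 0.19), gcl (-1.20 ± 0.08) and tor (-1.16 ± 0.14) fell less. In none of these genes, which were named among the falls, did the TPM ranges of the groups overlap. The list was not uniform: grk, the EGF-type ligand that polarizes the egg chamber, was at 16.6 and 18.8 TPM and 27.3 and 23.5 TPM and was not called (0.25 ± 0.11, adjusted p = 0.0982), but with library totals alone it was called higher (0.44, adjusted p = 0.0108), 1 of 3 rises on the list under that scaling.

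Genes used in meiotic arrest, egg activation and terminal patterning showed the same direction, with 15 of 19 lower, 1 higher and a median of -1.11. The single rise was lost when labelled HP1a-GKD replicate 2 or double-GKD replicate 2 was left out. clos, which encodes a protein of the oocyte surface that anchors the terminal signal, had the lowest adjusted p of all genes, at 96.4 and 95.7 TPM and 4.90 and 4.66 TPM (log2 fold change -4.60 ± 0.094 (SE), adjusted p = 2.02e-06). mtrm, an inhibitor of Polo kinase in the oocyte, went from 112 and 108 TPM to 6.03 and 8.86 TPM (log2 fold change -4.13 ± 0.21 (SE), adjusted p = 2.65e-05), and fs(1)N, another eggshell protein made with clos, from 65.4 and 61.3 TPM to 6.05 and 5.35 TPM (log2 fold change -3.75 ± 0.11 (SE), adjusted p = 7.18e-06). gwl, the Greatwall kinase (-2.58 ± 0.087), wisp, a cytoplasmic poly(A) polymerase (-2.39 ± 0.10), plu (-2.01 ± 0.30) and gnu (-1.90 ± 0.096), subunits of the kinase that starts embryonic translation, and ea, a protease of dorsal signalling (-1.12 ± 0.14), all fell. dhd, a thioredoxin that the egg uses to unpack sperm chromatin, was among the most abundant of the lowered transcripts, at 2284 and 1859 TPM and 125 and 159 TPM (log2 fold change -4.13 ± 0.26 (SE), adjusted p = 4.21e-05). yl, the yolk receptor of the oocyte, was at 459 and 410.1 TPM and 58.3 and 64.2 TPM (log2 fold change -3.09 ± 0.13 (SE), adjusted p = 1.87e-05). Each of these genes, named among the falls, had both double-GKD values below both values of the libraries labelled HP1a-GKD.

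**Figure D4:**
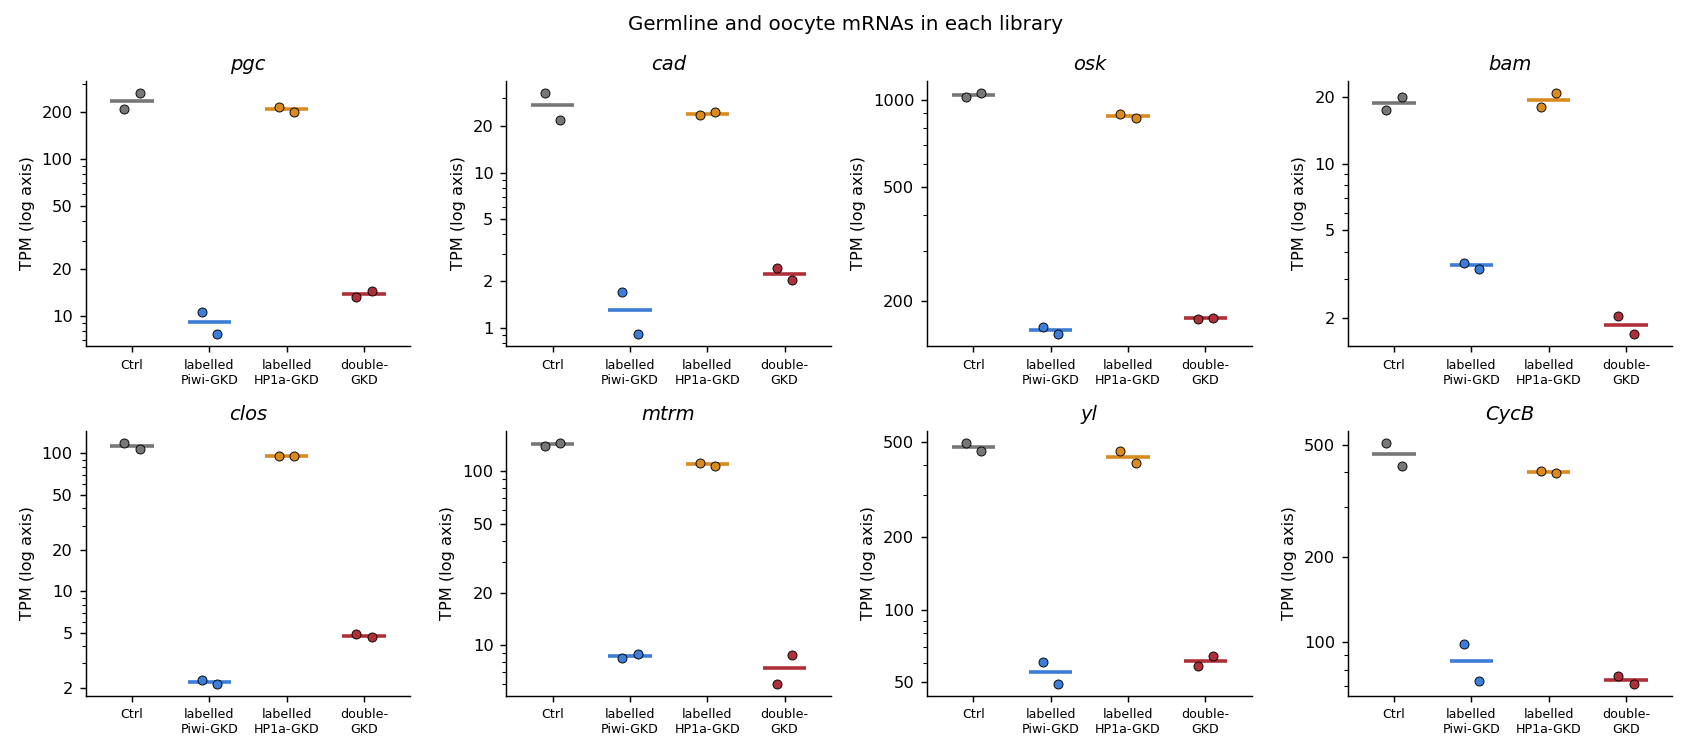
TPM (y axes, log scale) of 8 germline and oocyte mRNAs in the 8 RNA libraries (x axes, label of the library), each point a library and each line the mean of a group. In every panel the libraries labelled HP1a-GKD lie near Ctrl and double-GKD lies near those labelled Piwi-GKD; osk, for example, stands at 866 to 895 TPM and 174 to 175 TPM in the 2 groups compared.

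Earlier steps of germ cell development were lower too. Of 16 genes of stem cell and cyst differentiation, 9 fell and 1 rose (median -0.97). bam, the switch from stem cell to cyst, went from 18.1 and 20.9 TPM to 2.05 and 1.70 TPM (log2 fold change -3.66 ± 0.19 (SE), adjusted p = 2.65e-05), while bgcn, its RNA-binding partner, rose from 0.929 and 1.32 TPM to 3.24 and 2.64 TPM (log2 fold change 1.11 ± 0.20 (SE), adjusted p = 0.00278). otu, needed for cyst growth (-2.55 ± 0.20), ovo, a transcription factor of the female germline (-1.45 ± 0.14), and mei-P26, which acts with bam (-1.03 ± 0.08), fell. Among 30 genes of the mitotic cycle and the endocycle, 27 fell and none rose, with a median of -0.69. CycB stood at 403 and 398 TPM and 76.1 and 71.4 TPM (log2 fold change -2.71 ± 0.10 (SE), adjusted p = 1.53e-05) and CycA at 369 and 364 TPM and 97.1 and 106 TPM (log2 fold change -2.07 ± 0.14 (SE), adjusted p = 4.91e-05). stg, the Cdc25 phosphatase (-1.57 ± 0.16), CycE, the S-phase cyclin (-1.22 ± 0.085), and Cdk1 (-0.68 ± 0.15) fell by less. The mitotic cyclins thus dropped by more than the median of their list.

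The piRNA machinery itself was reduced when HP1a mRNA was lowered on top of piwi. Of 17 genes for nuclear silencing and for transcription of piRNA clusters, 11 fell and none rose (median -0.47); 7 fell when labelled HP1a-GKD replicate 1 or double-GKD replicate 1 was left out. Boot had the steepest fall, and rhi and del, which let clusters be transcribed from heterochromatin, fell as well. rhi, the HP1-family protein of clusters, was at 30.8 and 31.1 TPM and 12.9 and 13.5 TPM (log2 fold change -1.50 ± 0.18 (SE), adjusted p = 0.000471). del, its partner, was at 23.2 and 23.3 TPM and 9.19 and 8.68 TPM (log2 fold change -1.63 ± 0.13 (SE), adjusted p = 7.30e-05), and Boot, which takes cluster RNA to export, at 88.0 and 90.0 TPM and 31.6 and 28.1 TPM (log2 fold change -1.85 ± 0.071 (SE), adjusted p = 1.47e-05). mael (-1.03 ± 0.083) and the export helicase Hel25E (-0.97 ± 0.12) fell by about as much as each other, and nxf2, a part of the Panoramix silencing complex, by less (-0.46 ± 0.087). For these 6 genes, which were named among the falls, both double-GKD values were the lower ones.

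In the cytoplasm, 12 of 15 genes of nuage and ping-pong amplification fell and none rose, with a median of -0.94. Both PIWI proteins of this cycle were lower, AGO3 at 89.6 and 108 TPM and 33.8 and 40.6 TPM (log2 fold change -1.66 ± 0.22 (SE), adjusted p = 0.000743) and aub at 129 and 138 TPM and 57.0 and 59.3 TPM (log2 fold change -1.46 ± 0.10 (SE), adjusted p = 5.39e-05). Their Tudor-domain partners krimp (-1.74 ± 0.11), qin (-1.74 ± 0.086) and tej (-1.67 ± 0.19) fell by similar amounts. spn-E, a helicase of nuage, was at 76.5 and 81.9 TPM and 106 and 93.8 TPM and was not called (0.061 ± 0.075, adjusted p = 0.524), nor was the scaffold tud (0.16 ± 0.093, adjusted p = 0.19). With library totals alone both were called higher, spn-E at 0.25 (adjusted p = 0.0301) and tud at 0.35 (adjusted p = 0.0204), and 3 genes of the list rose. Of 10 genes of phased processing 5 fell, 3 without double-GKD replicate 1, among them the nuclease zuc (-1.27 ± 0.18) and the cochaperone shu (-1.05 ± 0.081). The 2 members that rose were the helicase armi (0.36 ± 0.096), whose call was lost without labelled HP1a-GKD replicate 1 (adjusted p = 0.13) or double-GKD replicate 2 (adjusted p = 0.11), and fs(1)Yb, which processes piRNAs in somatic cells, at 12.3 and 15.9 TPM and 32.2 and 28.4 TPM (log2 fold change 0.83 ± 0.11 (SE), adjusted p = 0.000673). Without labelled HP1a-GKD replicate 1 or double-GKD replicate 2, 1 member of the list rose.

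Genes for heterochromatin proteins other than HP1a were mostly called lower or not called. Of 16 tested HP1-family members and HP1 partners, HP1a included, 8 fell and 1 rose (median -0.36), and 5 fell when any 1 of the 4 libraries compared was left out, with 2 rises without double-GKD replicate 1. HP1c, a euchromatic relative, was slightly lower (log2 fold change -0.65 ± 0.12 (SE), adjusted p = 0.00382). HP6, a small chromoshadow-domain protein of the family, was the 1 that rose, from 0.639 and 1.67 TPM to 29.0 and 29.4 TPM (log2 fold change 4.36 ± 0.38 (SE), adjusted p = 0.000107), and its level was 6.48 and 3.90 TPM in Ctrl. HP6 lies within the span of the longer gene dpy, whose reads cannot be told apart from its own. Among 10 genes that add or remove H3K9 methylation 5 fell and none rose (median -0.31), 3 of them without labelled HP1a-GKD replicate 1. Su(var)3-9, the methyltransferase whose mark HP1a binds, was at 23.5 and 22.9 TPM and 10.1 and 10.1 TPM (log2 fold change -1.47 ± 0.11 (SE), adjusted p = 6.33e-05), and G9a, a second H3K9 methyltransferase, fell by a similar amount (-1.20 ± 0.098). egg, the SETDB1 enzyme that works with Piwi, was at 19.6 and 22.2 TPM and 25.3 and 22.5 TPM and was not called (-0.081 ± 0.088, adjusted p = 0.474). vig2, a chromatin-associated RNA-binding protein and the most abundant of the list, went from 1021 and 1083 TPM to 563 and 559 TPM (log2 fold change -1.17 ± 0.086 (SE), adjusted p = 5.85e-05). Of 9 telomere capping genes 3 fell (33.3%, against 25.6% of all genes) and 1 rose. None rose without either labelled HP1a-GKD replicate or without double-GKD replicate 2. HipHop, which binds chromosome ends together with HP1a, was among the falls (log2 fold change -0.52 ± 0.11 (SE), adjusted p = 0.00626).

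Of 8 genes of the siRNA and miRNA pathways 2 rose and 2 fell, 25% each way and near the 25.3% and 25.6% of all genes. Its median of -0.11 became 0.08 with library totals alone. AGO2, the siRNA slicer (0.51 ± 0.095), and loqs (0.59 ± 0.10) rose, and pasha, a miRNA processing cofactor (-0.66 ± 0.13), fell. Dcr-2, the siRNA-producing nuclease, stood at 514 and 617 TPM in both libraries labelled HP1a-GKD, 196 and 198 TPM in double-GKD, 229.8 and 186 TPM in those labelled Piwi-GKD and 119 and 111 TPM in Ctrl (log2 fold change -1.79 ± 0.11 (SE), adjusted p = 3.75e-05). It was the highest in the libraries labelled HP1a-GKD, and both of these lay above the other 6. Every genotype carries the UAS-Dcr-2.D transgene, and the gene-level values do not separate transgene from native transcripts.

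Genes that every cell uses for growth were mostly lower by small amounts, while some rarely expressed copies within the same complexes were called higher. Of 71 mitochondrial ribosomal protein genes 57 fell and none rose (median -0.65), 33 without labelled HP1a-GKD replicate 1 and 35 without double-GKD replicate 1; the deepest was mRpL20 (-1.09 ± 0.20). Of 86 cytoplasmic ribosomal protein genes 45 fell with a median of -0.30. That count was not stable: it was 9 without labelled HP1a-GKD replicate 1, 19 without labelled HP1a-GKD replicate 2, 9 without double-GKD replicate 1, 9 with library totals alone (median -0.12) and 27 without the filter on low counts. RpS2 (-0.68 ± 0.077) and the female germline paralog RpS5b, at 2126 and 2051 TPM and 987 and 1049 TPM (log2 fold change -1.30 ± 0.13 (SE), adjusted p = 0.000213), were among the falls. The 4 ribosomal genes that rose were all second copies of a ubiquitous gene. Of the 89 genes of this family 3 did not pass the filter on low counts. RpL22-like stood at 0.923 and 1.60 TPM and 17.2 and 14.5 TPM (log2 fold change 3.50 ± 0.26 (SE), adjusted p = 6.13e-05), RpS19b at 32.1 and 31.5 TPM and 119.7 and 129 TPM (log2 fold change 1.70 ± 0.15 (SE), adjusted p = 0.000104) and RpS10a at 21.0 and 22.7 TPM and 63.4 and 66.9 TPM (log2 fold change 1.31 ± 0.18 (SE), adjusted p = 0.000743). The fourth, RpL37-2 (1.84 ± 0.46), lost its call without labelled HP1a-GKD replicate 1 (adjusted p = 0.09) or double-GKD replicate 2 (adjusted p = 0.067).

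Single second copies were called higher in other complexes as well. Of the listed genes, 15 of 85 in oxidative phosphorylation and 13 of 47 in the proteasome did not pass the filter on low counts. A rare copy can pass that filter through a group where it is higher. Rises among rare copies were therefore favoured by the filter, and a pattern among such copies was not tested. Of 70 nuclear genes of oxidative phosphorylation 14 fell (20%, below the 25.6% of all genes), ATPsynC among them (-0.54 ± 0.10), and the rise was ATPsynepsilonL, a second copy of an ATP synthase subunit, from 3.74 and 2.5 TPM to 18.1 and 18.7 TPM (log2 fold change 2.28 ± 0.35 (SE), adjusted p = 0.0014). The number of falls was 6, 6 and 5 without labelled HP1a-GKD replicate 1, labelled HP1a-GKD replicate 2 and double-GKD replicate 1, and the list's median of -0.13 became 0.05 with library totals alone, which turned the balance to 9 rises and 3 falls. With the 4 compared libraries alone 2 rose. Of 34 proteasome genes 12 fell (35.3%, against 25.6% of all genes), none with library totals alone (median -0.0055) and 0 to 11 with 1 library left out (0 without labelled HP1a-GKD replicate 1, 1 without labelled HP1a-GKD replicate 2 and 1 without double-GKD replicate 1). The 2 that rose were Rpt6R (log2 fold change 3.37 ± 0.66 (SE), adjusted p = 0.00435) and Rpt3R (1.53 ± 0.46), male germline copies of base subunits. Rpt3R lost its call without labelled HP1a-GKD replicate 1 (adjusted p = 0.064) or double-GKD replicate 1 (adjusted p = 0.1). Among chaperones, Hsp83, an Hsp90 protein that assists loading of small RNAs, was at 3926 and 4962 TPM and 2379.7 and 2483 TPM (log2 fold change -1.13 ± 0.14 (SE), adjusted p = 0.000546) and Hsc70-4 at 3841 and 3996 TPM and 2643 and 2422 TPM (log2 fold change -0.90 ± 0.066 (SE), adjusted p = 5.81e-05). These were the 1st and 4th of the largest TPM losses named by rule, with dhd and RpS3A between them. RpS3A stood at 8520.1 and 8025 TPM and 6658 and 6818 TPM (log2 fold change -0.57 ± 0.19 (SE), adjusted p = 0.0425), and its adjusted p was 0.065 to 0.17 when any 1 of the 4 libraries was left out. The fifth, Nop10 (-1.48 ± 0.18), has an effective length of 66.3 bases, at which TPM is unstable.

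A few genes normally used in the testis rose. Of 34 listed testis genes, 11 passed the filter on low counts. Of these 4 rose (36.4%, against 25.3% of all genes) and 2 fell (18.2%, against 25.6%). The rises were 2 without either labelled HP1a-GKD replicate and 1 without double-GKD replicate 1. TfIIA-S-2, a male germline transcription factor subunit, was at 8.08 and 5.86 TPM and 19.7 and 21.9 TPM (log2 fold change 1.30 ± 0.28 (SE), adjusted p = 0.00702), and Taf12L, a testis TAF, at 1.85 and 0.525 TPM and 4.92 and 4.80 TPM (log2 fold change 1.73 ± 0.50 (SE), adjusted p = 0.0235). The call of TfIIA-S-2 was lost without labelled HP1a-GKD replicate 2 (adjusted p = 0.054) and that of Taf12L without the same library (adjusted p = 0.086) or either double-GKD replicate (adjusted p = 0.062 and 0.076). Among 16 meiotic genes 2 rose, 1 of them without double-GKD replicate 1, and 4 fell (25%, near the 25.6% of all genes). ord, a meiotic cohesion factor, went from 0.650 and 0.968 TPM to 6.85 and 6.26 TPM (log2 fold change 2.74 ± 0.25 (SE), adjusted p = 0.000122), and mei-218, a recombination protein, from 8.14 and 3.17 TPM to 18.6 and 14.7 TPM (log2 fold change 1.21 ± 0.32 (SE), adjusted p = 0.0158; adjusted p = 0.069 without double-GKD replicate 1). The synaptonemal complex gene c(2)M (-1.35 ± 0.21) and the kinesin-like nod (-1.10 ± 0.11) fell.

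Of 8 listed Hox genes 4 passed the filter on low counts, and 3 of these rose (75%, against 25.3% of all genes). A gene near 0 can pass that filter through a group where it is higher, so this share does not describe the family. The rises were Antp, at 6.03 and 5.89 TPM and 18.1 and 14.5 TPM (log2 fold change 1.11 ± 0.13 (SE), adjusted p = 0.000439), Abd-B (1.62 ± 0.22) and abd-A, at 6.17 and 7.14 TPM and 36.5 and 23.6 TPM (log2 fold change 1.89 ± 0.17 (SE), adjusted p = 0.00014). With labelled HP1a-GKD replicate 1 left out, 5 members passed the filter and were called. Among their repressors of the Polycomb group 7 of 20 fell by small amounts (35%, against 25.6% of all genes) and 2 rose. The median of these repressors, -0.18, became 0.0065 with library totals alone. Caf1-55, a histone chaperone shared with other complexes (-0.98 ± 0.12), and esc, the partner of the Polycomb methyltransferase (-0.71 ± 0.11), were the lowest 2. The falls numbered 4 without labelled HP1a-GKD replicate 2 or double-GKD replicate 1, and the rises 0 without labelled HP1a-GKD replicate 1, labelled HP1a-GKD replicate 2 or double-GKD replicate 1. Cytochromes P450, enzymes of detoxification and hormone synthesis, were mostly higher: of 64 tested 37 rose and 5 fell, with a median of 1.12. Cyp4g15, a P450 of the nervous system, went from 5.8 and 4.60 TPM to 30.4 and 25.3 TPM (log2 fold change 2.08 ± 0.18 (SE), adjusted p = 0.000117), whereas Cyp6a19 went the other way, from 52.7 and 49.4 TPM to 5.32 and 4.40 TPM (log2 fold change -3.67 ± 0.12 (SE), adjusted p = 1.08e-05).

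Some genes of signalling pathways were higher. Of 11 BMP pathway genes 5 rose (45.5%, against 25.3% of all genes) and none fell. The ligands dpp, at 3.99 and 4.73 TPM and 16.0 and 11.7 TPM (log2 fold change 1.37 ± 0.19 (SE), adjusted p = 0.000896), and gbb, at 34.6 and 36.6 TPM and 98.9 and 87.5 TPM (log2 fold change 1.11 ± 0.10 (SE), adjusted p = 0.00013), rose together with dally, a proteoglycan that holds the ligand (0.92 ± 0.08), and Dad, the pathway's inhibitor and target (1.59 ± 0.21). Of 12 ecdysone response genes 7 rose (58.3%, against 25.3% of all genes) and 1 fell. The rises were 4 without labelled HP1a-GKD replicate 2 or either double-GKD replicate, and none fell without any 1 of the 4 libraries compared. The early ecdysone response factors Eip74EF (1.25 ± 0.20) and Eip75B (1.11 ± 0.15) were more than 2-fold higher. Of 8 JAK-STAT genes 2 rose, 1 without either labelled HP1a-GKD replicate or without double-GKD replicate 1, and none fell, or 1 without either Ctrl replicate, with the effective-length offset or with the 4 compared libraries alone. The rises were 4 with DESeq2, with library totals alone or with the 4 compared libraries alone, so their share of 25% against 25.3% of all genes moved with the setting. Among the rises et, a receptor that dampens signalling, was at 1.42 and 1.13 TPM and 6.41 and 4.80 TPM (log2 fold change 1.86 ± 0.21 (SE), adjusted p = 0.000357).

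Cell death and stress genes moved in both directions. egr, the TNF ligand, rose from 15.1 and 16.6 TPM to 50.1 and 47.6 TPM (log2 fold change 1.35 ± 0.078 (SE), adjusted p = 3.65e-05). lok, the Chk2 kinase of the DNA damage response, fell from 148 and 159 TPM to 67.1 and 62.9 TPM (log2 fold change -1.51 ± 0.092 (SE), adjusted p = 3.75e-05) and Dcp-1, a caspase used in germline death, from 35.2 and 36.8 TPM to 19.6 and 16.8 TPM (log2 fold change -1.26 ± 0.11 (SE), adjusted p = 0.000113). Of the 19 genes on that list 7 rose (36.8%, against 25.3% of all genes) and 4 fell (21.1%, against 25.6%). The rises were 2 without either labelled HP1a-GKD replicate, 3 without double-GKD replicate 1 and 4 without double-GKD replicate 2. The mitochondrial chaperonin Hsp60A fell (-1.29 ± 0.084), and Hsp67Ba (2.10 ± 0.24) and the cochaperone stv (1.32 ± 0.27) rose. Of 18 heat shock genes 2 rose and 7 fell (38.9%, against 25.6% of all genes). The falls were 3 without labelled HP1a-GKD replicate 2 or double-GKD replicate 2 and 4 without double-GKD replicate 1.

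Other gene classes that an ovary hardly uses were tested in small part, since most members did not pass the filter on low counts. Of 120 cuticle protein genes 14 were tested, and 8 of these rose, 5 without labelled HP1a-GKD replicate 1 and 3 without labelled HP1a-GKD replicate 2 or double-GKD replicate 1. Of 177 chemosensory receptor genes 16 were tested, of which 5 rose (31.25%, against 25.3% of all genes) and 1 fell. Without labelled HP1a-GKD replicate 1 there was 1 rise and no fall, and without labelled HP1a-GKD replicate 2 no rise. Without double-GKD replicate 1 there was 1 rise, and without double-GKD replicate 2 there were 3 rises and no fall. Of 17 antimicrobial peptide genes 7 were tested and 2 rose (28.6%, near the 25.3% of all genes), a count that was 4 with DESeq2, 0 without either labelled HP1a-GKD replicate or double-GKD replicate 1, 1 without either labelled Piwi-GKD replicate and 6 without double-GKD replicate 2. Late eggshell genes were near the floor, with 8 of 9 chorion genes and 5 of 7 vitelline membrane genes not tested. Tracheal markers rose in 3 of 4 cases and neuronal markers in 1 of 5.

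The genes with the largest fold changes among those reaching a mean of 10 TPM in either group were near 0 in 1 of the groups in many cases. CG4438 had 0 counts in both libraries labelled HP1a-GKD and 148 and 211 counts in double-GKD, which makes it at least 63.8-fold higher when a floor of 3 counts is set for each library. CG43088 was at 0.558 and 0.747 TPM and 83.6 and 116 TPM (log2 fold change 6.98 ± 0.44 (SE), adjusted p = 4.08e-05). CG32971 (4.23 ± 0.33), CG13840 (4.07 ± 0.33) and CG9737 (3.92 ± 0.36) rose from about 1 TPM or less, and Alp4, an alkaline phosphatase, rose from 13.1 and 7.07 TPM to 227 and 164 TPM (log2 fold change 3.99 ± 0.28 (SE), adjusted p = 5.05e-05). The largest gain in TPM was that of CG43134, at 55.0 and 14.9 TPM and 1991 and 1200.1 TPM (5.18 ± 0.46), followed by Act57B, CG7443 (1.91 ± 0.14), CG34446 and the muscle light chain Mlc2 (1.41 ± 0.093); CG43134, CG34446 and CG42822 have effective lengths of 98.5, 7.49 and 89.0 bases, at which TPM is unstable. CG42822 had 1 and 0 counts against 13 and 21, and lost its call without labelled HP1a-GKD replicate 2 (adjusted p = 0.086). CG15155 rested on 1 library, with 24.0 and 1.30 TPM in double-GKD, and its adjusted p was 0.12 to 0.43 when 1 of the 4 libraries other than double-GKD replicate 2 was left out. CG4438, CG43088, HP6 and CG32971 lie within the spans of longer genes (Shawl, NetB, dpy and wb), and clos overlaps several neighbours; whether counting used the strand is not given in the sources used here, so reads of these neighbours cannot be told apart.

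Among the falls of the same rule, clos, dhd, mtrm and pgc are described above. FucTA, a fucosyltransferase, went from 11.6 and 12.6 TPM to 0.453 and 0.739 TPM (log2 fold change -4.50 ± 0.26 (SE), adjusted p = 3.65e-05), Ork1, a potassium leak channel, from 28.2 and 23.0 TPM to 1.44 and 1.96 TPM (log2 fold change -4.17 ± 0.21 (SE), adjusted p = 2.65e-05), and CG3457 from 17.2 and 16.3 TPM to 1.55 and 1.31 TPM (-3.81 ± 0.36). The other 3 were highest in the libraries labelled HP1a-GKD among all groups. S-Lap1, a leucyl aminopeptidase of sperm, was at 14 and 15.6 TPM there, 0.106 and 0.163 TPM in double-GKD, 2.47 and 3.50 TPM in Ctrl and 0.0504 and 0.0461 TPM in those labelled Piwi-GKD (log2 fold change -6.96 ± 0.35 (SE), adjusted p = 2.65e-05). Drsl4, a drosomycin-like peptide gene with an effective length of 73.1 bases, had 102 and 107 counts and 0 counts in both double-GKD libraries, at least 32.2-fold lower against the same floor. CG8799, the locus tag of an ABC transporter gene, was at 12.5 and 11.7 TPM and 1.03 and 0.913 TPM, with 1.61 and 1.52 TPM in Ctrl (log2 fold change -3.92 ± 0.14 (SE), adjusted p = 1.28e-05).

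Chromosome 4, which is rich in HP1a along its length, gave the highest share of rises. Of its 74 genes tested 44.6% rose and 17.6% fell (median 0.39), while the share of rises on the other arms ran from 23.4% to 26.8%. Its genes include bt of the muscle list (1.44 ± 0.16), apolpp of the fat body list (1.80 ± 0.25) and RpS3A. What part somatic genes had in the chromosome's share was not tested. Of 20 listed genes inside pericentric heterochromatin of the other chromosomes 18 were tested, and these were not higher as a group. Among them 1 rose (5.56%, against 25.3% of all genes) and 8 fell (44.4%, against 25.6%). There were fewer falls without either labelled HP1a-GKD replicate or without double-GKD replicate 1. The list is a small part of such genes, was picked with earlier results known and does not describe them all. The study examined a wider set of heterochromatic genes and reported mostly rises among their larger changes upon HP1a loss. Here nrm, a cell adhesion protein, was the member of the list that rose, from 20.4 and 20.6 TPM to 73.2 and 60.9 TPM (log2 fold change 1.40 ± 0.086 (SE), adjusted p = 3.75e-05). spok, an enzyme of ecdysone synthesis, was at 4.39 and 4.78 TPM in both libraries labelled HP1a-GKD, 0.138 and 0.369 TPM in double-GKD and 0.165 and 0.436 TPM in Ctrl (log2 fold change -4.34 ± 0.58 (SE), adjusted p = 0.000705).

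This step was then tested against that from Ctrl to the libraries labelled Piwi-GKD. Those have HP1a mRNA low and piwi mRNA above its reduced level. piwi mRNA was nevertheless also called lower there than in Ctrl, so that step does not lower HP1a mRNA alone. The steps have no library in common. In that step 29.3% of the genes tested rose and 29.1% fell. Of the 2364 rises onto low piwi 2105 (89%) were also rises there, which is 76.9% of the rises there, and of the 2393 falls 2165 (90.5%) were also falls there, 79.5% of the falls there. The fitted log2 fold changes of both steps correlated across the 9346 genes with r = 0.688, as a description, since genes are not independent replicates. A test of the difference between the steps called 5 genes (0.0535%) with the higher and 20 genes (0.214%) with the lower value in the step onto low piwi, and 759 genes had an unadjusted p under 0.05. DESeq2 called 30 and 54. The count depended on single libraries, at 2 to 7 and 8 to 26 with 1 library left out (2 and 9 without labelled HP1a-GKD replicate 1, 2 and 8 without labelled HP1a-GKD replicate 2, and 2 and 13 without Ctrl replicate 2; 12 of the second kind without labelled Piwi-GKD replicate 2 or double-GKD replicate 1).

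**Figure D5:**
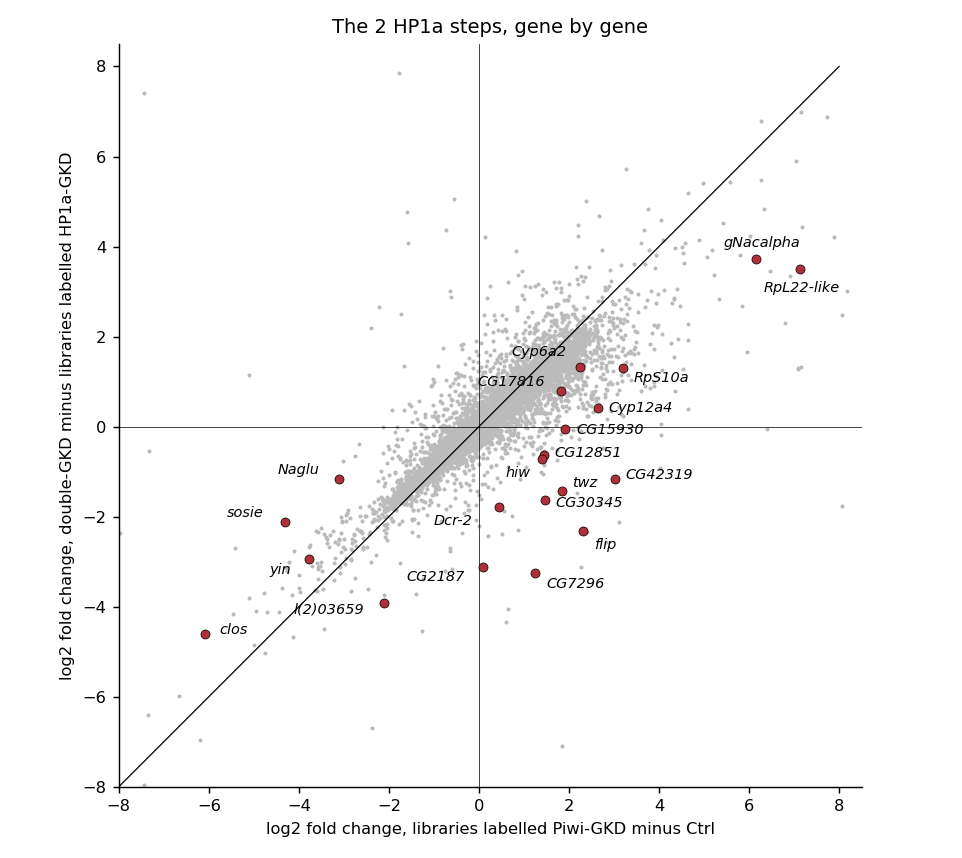
Log2 fold change of double-GKD over the libraries labelled HP1a-GKD (y axis) against that between the libraries labelled Piwi-GKD and Ctrl (x axis) for 9155 genes with a genomic span of their own, 23 of which lie outside the axes; red points are the 21 of them called for the difference of the steps, and the diagonal marks equal values. Most genes lie near the diagonal, and flip, CG7296, CG42319, CG30345 and twz lie to the right of 0 and below 0.

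Several of the genes that differed were higher in the libraries labelled HP1a-GKD than in Ctrl and lower again in double-GKD. CG7296 stood at 0.688 and 0.604 TPM in Ctrl, 47.7 and 42.6 TPM in both libraries labelled HP1a-GKD, 2.20 and 1.98 TPM in those labelled Piwi-GKD and 5.14 and 6.12 TPM in double-GKD. Its log2 fold change was -3.26 in the step onto low piwi and 1.26 in the other, a difference of -4.51 ± 0.38 (adjusted p = 0.00476). CG2187 followed the same order, at 2.79 and 1.62, 31.0 and 29.3, 3.82 and 3.13 and 4.11 and 4.01 TPM in the same sequence (difference -3.20 ± 0.22, adjusted p = 0.00185). CG30345 was at 14.1 and 12.6, 127 and 104, 52.1 and 44.7 and 46.8 and 43.5 TPM in that sequence (difference -3.09 ± 0.16, adjusted p = 0.00084). For flip the levels were 0.170 and 0.375, 12.9 and 9.72, 2.13 and 1.88 and 2.91 and 2.56 TPM (difference -4.64 ± 0.48, adjusted p = 0.0145). In these 4 genes both libraries labelled HP1a-GKD were above the other 6. CG7296, flip, CG42319 and Cyp12a4 belong to a table of genes near transposons that the study chose on these same samples, which is no independent evidence of its direction. Of the 13 genes of that table tested 4 rose (30.8%, against 25.3% of all genes) and 5 fell (38.5%, against 25.6%) onto low piwi. Fewer rose without either labelled HP1a-GKD replicate, labelled Piwi-GKD replicate 1 or either double-GKD replicate. Fewer fell without labelled HP1a-GKD replicate 1 or either double-GKD replicate.

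RpL22-like and gNacalpha, a second copy of a nascent-chain chaperone subunit that was picked after its values were seen, differed in another way. RpL22-like was at 0.586 and 0.529 TPM in Ctrl and 134 and 125 TPM in the libraries labelled Piwi-GKD, so its rise was larger where piwi had not been lowered as far (3.50 against 7.12, difference -3.62 ± 0.40, adjusted p = 0.0186). gNacalpha was at 1.07 and 0.742 TPM in Ctrl, 92.8 and 85.4 TPM in those labelled Piwi-GKD, 1.44 and 2.19 TPM in those labelled HP1a-GKD and 29.0 and 29.5 TPM in double-GKD (difference -2.44 ± 0.32, adjusted p = 0.0412). In the other direction clos and yin, an oligopeptide transporter, had fallen by less onto low piwi than onto Ctrl, with differences of 1.48 ± 0.12 (adjusted p = 0.00476) and 0.81 ± 0.11 (adjusted p = 0.0496). Without labelled HP1a-GKD replicate 1 or 2 the adjusted p for clos was 0.051 and 0.05, and that for yin was 0.1 to 0.3 with any 1 of the 8 libraries left out. The difference for RpL22-like lost its call without either Ctrl replicate, labelled HP1a-GKD replicate 2, labelled Piwi-GKD replicate 2 or double-GKD replicate 1 (adjusted p = 0.058 to 0.098), that for gNacalpha without any 1 of the 8 libraries (0.058 to 0.18) and that for flip without either labelled HP1a-GKD replicate, labelled Piwi-GKD replicate 2 or double-GKD replicate 1 (0.05 to 0.087).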

How the data were processed

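Ovary RNA of 4 genotypes was measured in 2 libraries each, and a whole-fly DNA table was not used. By the study's methods and the labels, the authors depleted rRNA, sequenced single ends from random primers, and aligned with STAR to dm3; strand use in counting is not given in the sources used here. The deposited tables hold, for each gene, the estimated counts of Salmon, which were rounded to whole numbers here, and TPM, which the authors obtained from those counts and the effective length. Names were found for 13484 of 13937 gene identifiers, and 8 names on the lists had no match.

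Groups follow the labels. The estimated counts were fitted with edgeR 4.0.16 (glmQLFit and glmQLFTest, R 4.3.3) over all 8 RNA libraries and 4 groups, after TMM scaling and edgeR's filterByExpr, and p-values were adjusted by Benjamini-Hochberg over 9346 genes. SE is the absolute log2 fold change over the square root of F. Alternatives were RLE factors, library totals alone, DESeq2 1.42.0, no filter, effective-length offsets, the replicate number as a block, the 4 compared libraries alone and each library left out.

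Members and gene lists were chosen with earlier results of these data known. Named genes are list members and, among protein-coding genes called without overlap of TPM, with a mean of at least 10 TPM in a group and no span identical to another gene's, the 10 largest rises and falls in fold, the 5 largest in TPM, and up to 5 at each end of the difference between the steps. The SE includes the spread between replicate libraries, while floors of 3 counts cover counting error only.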

Additional observations from a re-analysis of the deposited data

Results flagged for a closer look

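For 25 genes the change between double-GKD and the pair labelled HP1a-GKD differed from the change between the pair labelled Piwi-GKD and Ctrl in edgeR's quasi-likelihood test of the difference itself. Each value is the first log2 fold change minus the second. Of the named genes, the difference was -3.62 for RpL22-like, -1.89 for RpS10a, -2.24 for Dcr-2, -1.81 for CG8799, -4.51 for CG7296, -4.64 for flip, -3.20 for CG2187, -3.09 for CG30345, -4.19 for CG42319, -2.24 for Cyp12a4, -0.94 for Cyp6a2, 1.48 for clos and 0.81 for yin. Outside the lists it was -3.26 for twz, -2.44 for gNacalpha, -2.10 for hiw, -2.07 for CG12851, -1.97 for CG15930 and -1.03 for CG17816, and on the positive side 2.19 for sosie and 1.94 for Naglu. The values of 11.43 for CG33932, -10.40 for CG42726, -11.29 for Rpp20 and -7.67 for sloth1 belong to genes that share an identical span with another gene, so the division of their reads is uncertain. How many of these calls were lost with 1 library left out is given with the processing alternatives.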

How the results depend on the processing

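The 2364 rises and 2393 falls numbered 2179 and 2231 with DESeq2, 2401 and 2351 with RLE factors, 2189 and 2385 without a filter, 2551 and 2628 with the 4 compared libraries alone, and 1632 to 2387 and 1701 to 2507 with 1 library left out. Of 150 genes named with a fold change, 133 kept both their sign and their side of the threshold in every alternative. With library totals alone the log2 fold change of piwi was 0.13, that of egg 0.11 and that of CG15930 0.14, in place of negative values that were not called; the median over all genes was 0.20 under that setting. The same setting gave 4 falls and 2 rises among HP1 partners, 3 falls in the H3K9 list, 3 in phased processing, 2 in the Polycomb group and 5 in pericentric heterochromatin, no ecdysone fall, 4 telomere rises and 2 rises in the stem cell list.

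For the difference between the steps, calls with a positive value numbered 3 with library totals alone, 3 without a filter and 30 with DESeq2, against 5, and those with a negative value 54 with DESeq2, against 20; the cause was not tested. They ran from 2 to 7 and from 8 to 26 with 1 library left out, and 9 of the 25 genes kept their call in every alternative. Most were lost without labelled HP1a-GKD replicate 2, where 16 of 25 fell short.

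Same-numbered libraries deviated together with correlations of -0.043 to 0.23 across genes, so the numbers were not taken as pairs. With the replicate block, 2620 genes rose and 2748 fell, the steps differed in 7 and 27 genes, and rises numbered 5 in the JAK-STAT list, 3 in oxidative phosphorylation, 1 in nuage and 2 among yolk genes. Depth limits genes with few counts in 1 of the groups, whose fold changes depend on the prior count of the fit.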
